A study of Mus musculus with 12 samples.

Results

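The 10 genes Hk1, Hk2, Gpi1, Pfkl, Pfkp, Aldoa, Pgk1, Eno1, Pkm and Ldha encode the widely used, somatic-type enzymes of glycolysis, and their transcript levels were followed in sorted mouse spermatogonia. The genes were taken by symbol from a table of 53715 genes, in which 11 identifiers carry one of the symbols. Aldoa has a second identifier with 0 to 6 counts per library, and the one with the higher counts was used. All 10 passed the filter on low counts, which left 19815 genes.

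Glycolysis turns glucose into pyruvate, with hexokinase and phosphofructokinase as its regulated entry steps, and lactate dehydrogenase then converts pyruvate and lactate into each other. Many steps have a somatic isozyme and a germ cell isozyme from another gene, such as Pgk1 and Pgk2 or Ldha and Ldhc. The germ cell forms are known to come on in meiosis and in spermatids, and sperm use them to make ATP along the tail. Spermatogonial stem cells are known for relying on glycolysis with the somatic enzymes.

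RNA was measured in 12 libraries in 4 groups of 3, from WT and Tet1KO testes at 3 and at 11 months of age, all on a C57BL6/129 background. TET1 oxidises 5-methylcytosine in DNA, and the comparison asks how transcript levels differ without it in younger and older mice. Each library was made from 1000 sorted cells with Smart-seq2, which copies full-length transcripts from little RNA. The labels do not name the Tet1 exons removed, whether the allele is conditional, the sorting marker, or whether the libraries within a group are different mice. The p-values below thus describe spread among libraries and may hold technical variation only.

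Total counts ran from 8325159 to 18223645 per library, and a count of 0 allows up to 3 counts, or 0.165 to 0.36 CPM (counts relative to library size), for counting error only. Tet1 itself had 0 to 18 counts per library and did not separate the genotypes, with means at 3 months of 0.925 ± 0.84 CPM for WT and 0.981 ± 0.649 for Tet1KO, and at 11 months of 0.515 ± 0.436 and 0.729 ± 0.866 (SD, n = 3 each). The genotype therefore rests on the labels. The germ cell markers Ddx4 and Dazl were high in all 12 libraries, at 261 to 386 and 1651 to 2503 CPM. On the first principal component, which held 39.0% of the variance, WT replicate 1 and Tet1KO replicate 2 of 3 months lay apart at -131 and -121, against -38.9 to 55.9 for the other 10. The summed level of 12 spermatid markers was also uneven, from 298 to 2910 CPM, and was highest in WT replicate 1 of 3 months and in replicate 1 of both genotypes at 11 months. Genes of white blood cells were not absent either, since 16 leukocyte markers summed to 87.2 to 1093 CPM. The 7 Leydig cell markers summed to 2.26 to 13.8 CPM, with Hsd17b3 at 0 counts throughout, and the 7 peritubular myoid markers to 23.2 to 375 CPM.

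By gene model in the deposited table, in mm10, the entry steps are the hexokinase genes Hk1 (ENSMUSG00000037012.18, chr10:62268855-62379908, minus strand) and Hk2 (ENSMUSG00000000628.10, chr6:82725025-82774454, minus strand) and the phosphofructokinase genes Pfkl (ENSMUSG00000020277.10, chr10:77986947-78010083, minus strand) and Pfkp (ENSMUSG00000021196.14, chr13:6579768-6648777, minus strand). Between them acts the isomerase gene Gpi1 (ENSMUSG00000036427.5, chr7:34201330-34230336, minus strand). The hexose is split by the product of Aldoa (ENSMUSG00000030695.16, chr7:126795234-126800751, minus strand). Kinase and enolase steps follow with Pgk1 (ENSMUSG00000062070.12, chrX:106187100-106203699, plus strand) and Eno1 (ENSMUSG00000063524.13, chr4:150236721-150248879, plus strand). Pyruvate is made by the product of Pkm (ENSMUSG00000032294.17, chr9:59656368-59679375, plus strand) and turned to lactate by that of Ldha (ENSMUSG00000063229.15, chr7:46841475-46855627, plus strand). Counts are over all exons of a gene, so splice forms such as those of Pkm are not told apart.

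The promoters of 4 genes are printed because their transcript levels varied in pairs across libraries, Ldha with the germ cell gene Ldhc next to it and Aldoa with Eno1. Sequences are from RefSeq on GRCm38.p6, the same assembly as mm10, and give the 250 bases before an annotated start, 5′ to 3′ on the gene's strand. Where a gene has several starts, the window richest in CpG was taken. Capitals mark ACGTG and GCGTG on either strand (read as CACGT and CACGC on the other), the core bound by hypoxia-inducible factors, which are known activators of glycolysis genes. CACGTG holds ACGTG on both strands and so counts 2 times.
Ldha, chr7:46845554-46845803, plus strand: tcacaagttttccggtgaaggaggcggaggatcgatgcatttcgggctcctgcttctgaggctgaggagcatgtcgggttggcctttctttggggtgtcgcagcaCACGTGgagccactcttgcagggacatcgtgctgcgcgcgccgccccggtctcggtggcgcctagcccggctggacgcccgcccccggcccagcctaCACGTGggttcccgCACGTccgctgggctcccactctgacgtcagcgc
Ldhc, chr7:46861013-46861262, plus strand: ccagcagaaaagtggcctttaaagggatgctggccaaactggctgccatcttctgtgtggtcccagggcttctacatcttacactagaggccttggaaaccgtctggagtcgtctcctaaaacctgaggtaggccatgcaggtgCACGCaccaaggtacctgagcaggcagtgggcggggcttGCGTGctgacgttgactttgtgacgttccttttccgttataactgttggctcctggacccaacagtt
Aldoa, chr7:126799255-126799504, minus strand: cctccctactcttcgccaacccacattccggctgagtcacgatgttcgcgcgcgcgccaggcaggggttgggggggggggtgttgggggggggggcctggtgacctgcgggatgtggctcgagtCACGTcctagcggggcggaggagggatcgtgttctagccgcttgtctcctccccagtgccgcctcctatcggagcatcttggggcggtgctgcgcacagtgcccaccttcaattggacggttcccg
Eno1, chr4:150236974-150237223, plus strand: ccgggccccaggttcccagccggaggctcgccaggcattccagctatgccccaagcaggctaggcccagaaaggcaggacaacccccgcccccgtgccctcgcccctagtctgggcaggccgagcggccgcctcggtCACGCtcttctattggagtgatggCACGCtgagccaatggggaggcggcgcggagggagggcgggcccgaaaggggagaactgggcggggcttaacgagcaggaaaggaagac

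The Ldha window held 5 matches of ACGTG and 0 of GCGTG, and the Ldhc window held 0 and 2. Aldoa had 1 and 0, and Eno1 had 0 and 2. Of 32851 RefSeq windows of 300 bases, 250 before and 50 after the start, 19.6% held ACGTG and 32.4% held GCGTG, so a single match is common. Over 300 bases Ldha held 5 matches of ACGTG and 2 of GCGTG, and the counts of Ldhc, Aldoa and Eno1 were the same as over 250. In the windows of that length richest in CpG, Gpi1 and Pkm held neither motif. Hk2 and Pgk1 held 2 matches of ACGTG each, Hk1 held 2 of ACGTG and 3 of GCGTG, Pfkp held 4 of GCGTG and Pfkl 1. The counts depend on the start taken. Another annotated start of Pkm, with 23 CpG, held 2 matches of ACGTG, and another of Hk1, with 1 CpG, held neither motif. Another start of Ldha, with 13 CpG, held 0 matches of ACGTG and 2 of GCGTG. Other starts of Ldhc, with 3 CpG, and of Aldoa, with 0 CpG, held neither motif. The remaining starts of Aldoa and Eno1 held the same counts as those taken. These matches are letters in a window and do not show binding.

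Levels between genes are given as RPKM, the scaled CPM divided by exon length in kilobases. Pgk1, which makes the first ATP of the pathway, led with a median of 21.8 RPKM over the 12 libraries (17.6 to 29.9). Gpi1, which turns glucose-6-phosphate into fructose-6-phosphate, followed at 15.6, then Aldoa, which splits the hexose, at 13.2. Pkm, the pyruvate kinase gene, had 9.15, Eno1 5.57 and Ldha 5.18. The entry step enzymes came last, with Hk2 at 2.56, Pfkp at 1.15, Hk1 at 0.551 and Pfkl at 0.201 RPKM.

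Not every neighbour in that order was separated. Pgk1 was above Gpi1 in 10 of 12 libraries, Gpi1 above Aldoa in 10, and Aldoa above Pkm in 11. Eno1 and Ldha changed places, each being higher in 6 of the libraries, with a mean log2 difference (Eno1 minus Ldha) of -0.32 ± 1.25 (SD, n = 12). From Ldha downwards each gene exceeded the next in all 12 libraries. Pfkl, the liver-type phosphofructokinase, rested on 5 to 38 counts per library.

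**Figure D1:**
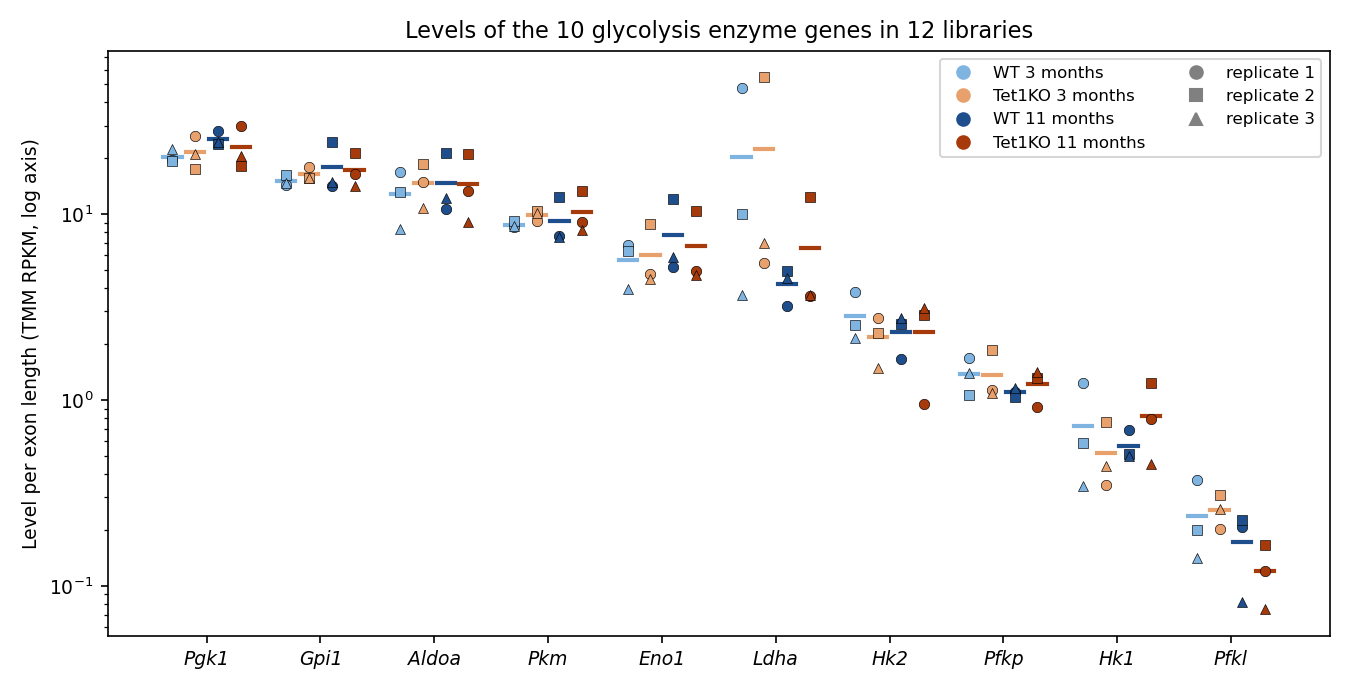
Levels of the 10 genes in TMM RPKM (log axis), ordered by their median over 12 libraries, with 1 point per library, colour for the group, shape for the replicate number and a bar for the mean of 3. Pgk1 leads at a median of 21.8 and Pfkl is last at 0.201, while Ldha spans 3.20 to 54.5 with 2 libraries of 3 months above the rest.

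Isozyme shares, taken per exon length, differed by step. Hk2 made up 46.5 to 83.2% of hexokinase transcripts and Hk1 10.5 to 38.5%, so Hk2 led in every library. Among phosphofructokinases the muscle-type gene Pfkm held 44.1 to 62.3%, Pfkp 30.5 to 53.1% and Pfkl 2.82 to 7.96%. Pkm held at least 98.2% of pyruvate kinase, with the liver and red cell gene Pklr making up the rest. Aldoa held 49.4 to 66.4% of aldolase and Aldoc, the brain-type gene, 17.3 to 32.4%. Eno1 shared its step with the muscle gene Eno3, at 32.0 to 51.3% against 29.7 to 45.7%.

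Germ cell forms made up more of some steps than of others, in cells labelled spermatogonia. The retrogenes Aldoart1 and Aldoart2 together held 4.58 to 33.1% of aldolase and Eno4, the sperm enolase gene, 14.8 to 30.7% of enolase. Pgk2 made up 28.3 to 85.7% of phosphoglycerate kinase transcripts and was highest in WT replicate 1 (85.6%) and Tet1KO replicate 2 (85.7%) of 3 months. Of short windows in Pgk1 transcripts, 53.9% also occur in another gene, against 0.0% for Pgk2. Reads not credited to Pgk1 for that reason would make the Pgk2 share too high, which was not tested. Ldhc and Ldhal6b together made up 68.3 to 94.3% of lactate dehydrogenase, and Ldha only 3.06 to 11.0%. Averaged over both ages, the germ cell share of phosphoglycerate kinase was 51.2% in WT and 53.8% in Tet1KO, a difference of 2.53 percentage points (exact two-sided permutation of genotype within age, p = 0.885, 400 arrangements). For lactate dehydrogenase the shares were 83.6% and 86.8%, a difference of 3.22 points (exact permutation p = 0.575). Without Tet1KO replicate 1 of 3 months, which had the lowest share at 68.3%, the difference was 7.26 points (exact permutation p = 0.045, unadjusted), so that library decides this call. Neither difference held beyond the spread with all libraries in.

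**Figure D2:**
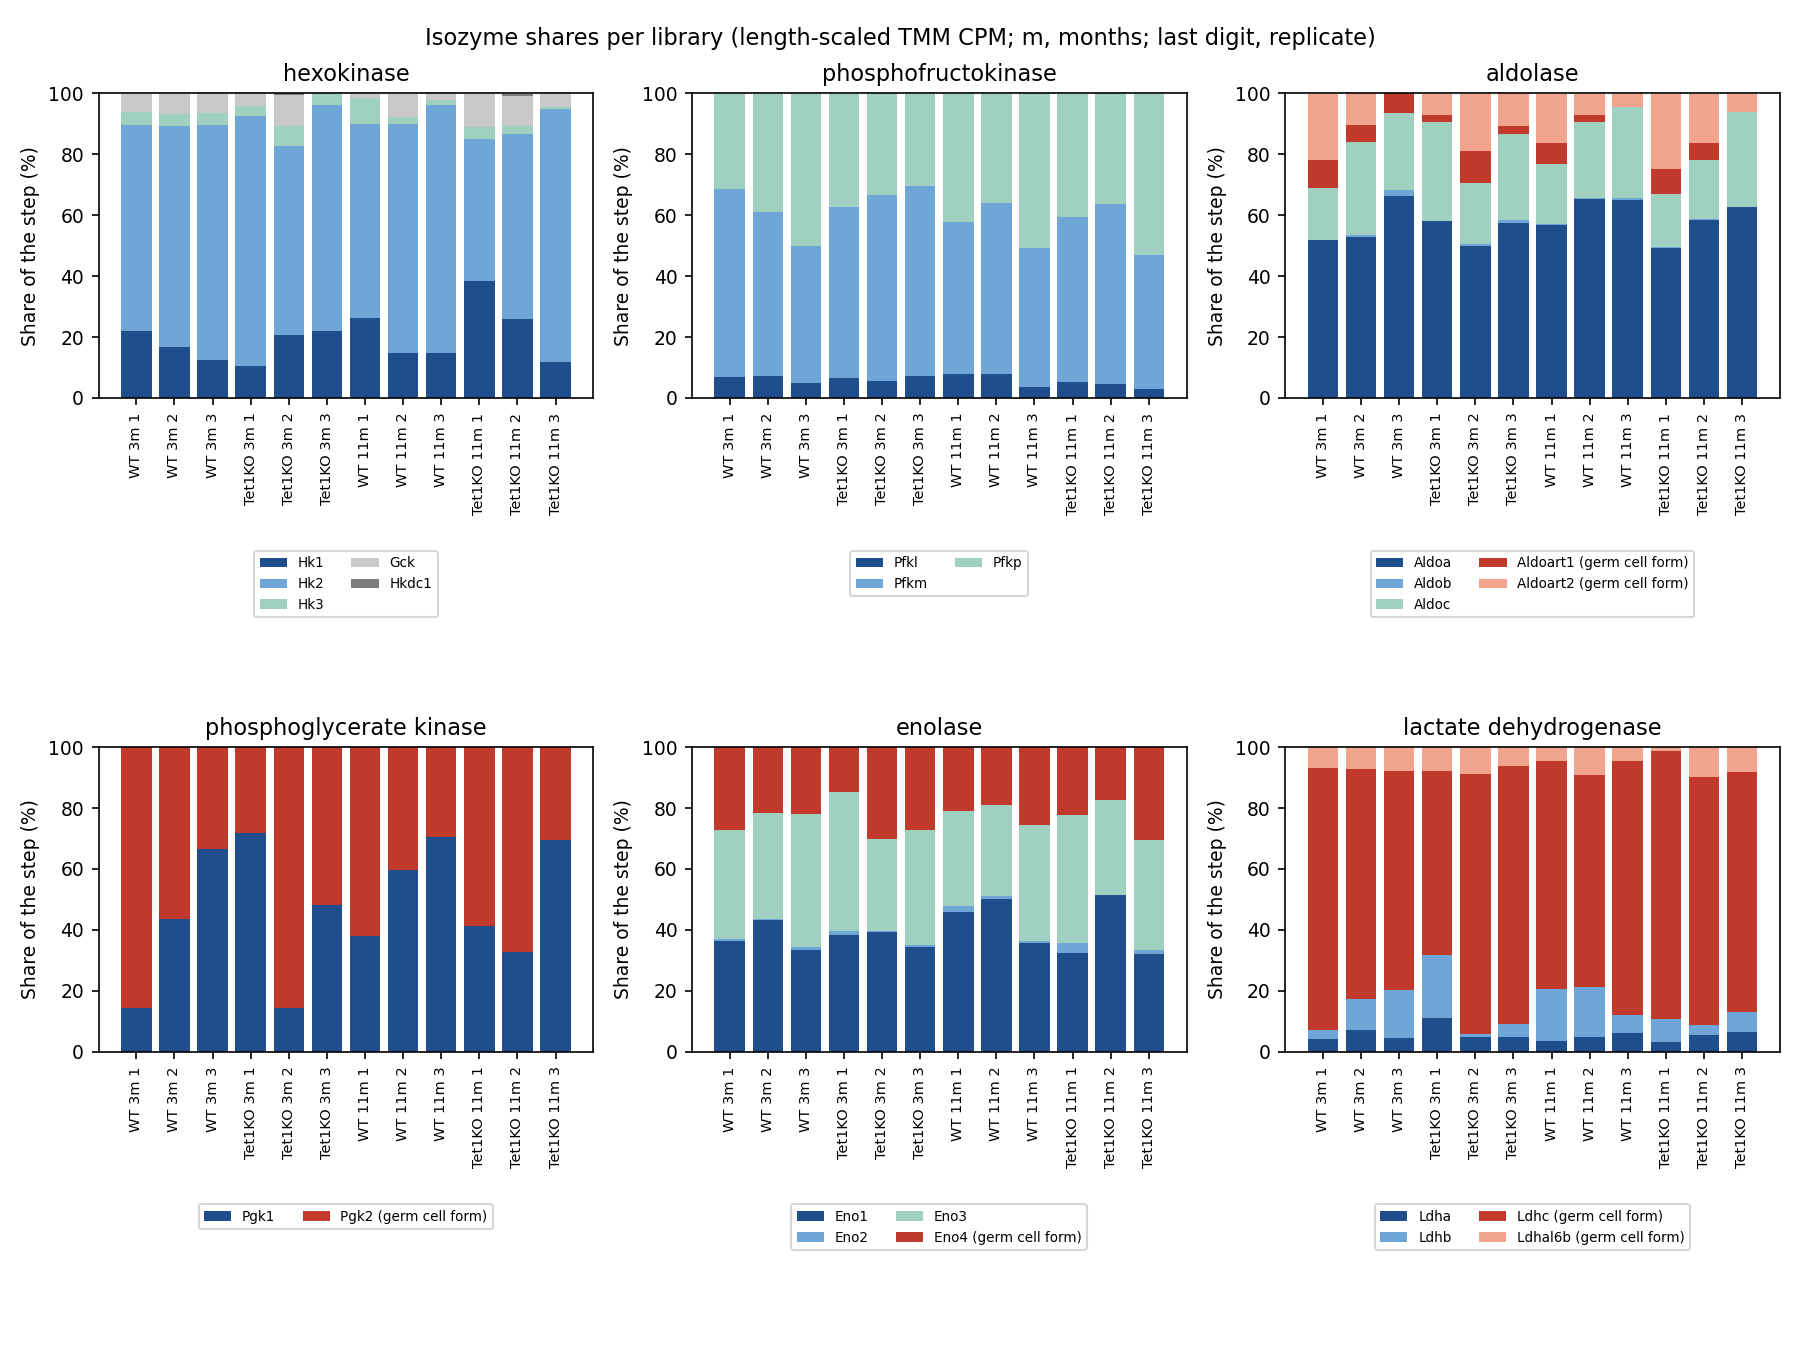
Share of each isozyme in 6 glycolysis steps, in percent of length-scaled TMM CPM, 1 bar per library, with germ cell forms in red and somatic forms in blue, green and grey. Phosphoglycerate kinase ranges from 28.3 to 85.7% Pgk2, while Ldhc and Ldhal6b fill 68.3 to 94.3% of lactate dehydrogenase in every library.

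At 3 months, no difference between Tet1KO and WT in the 10 genes exceeded the spread tested, which was pooled over the libraries of both ages. None of the 10 was called at an adjusted p of 0.05 in edgeR's quasi-likelihood test, against 0 of 19815 genes (0.0%), and none had an unadjusted p under that value, against 225 genes (1.14%). DESeq2 called 2 genes of the table, none of them among the 10. Of the 10, 7 had a higher and 3 a lower estimate in Tet1KO, with a median log2 fold change of 0.09, against -0.02 over all genes tested and 46.8% of these higher. The estimates of the 10 ran from -0.48 to 0.20.

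Hk1 had the smallest unadjusted p of the 10 at 3 months (edgeR, 0.356). Pkm stood out only in that its groups did not overlap. It had 42.6, 45.9 and 43.1 CPM in WT and 46.0, 52.0 and 50.6 in Tet1KO, so every Tet1KO library was above every WT library. The log2 fold change was 0.18 ± 0.22 (SE) with a 95% interval of -0.30 to 0.66 and an adjusted p of 1. The spread behind that SE is pooled over both ages, with a within-group SD of 0.279 for Pkm in log2 CPM. At 3 months its log2 deviations from its own mean ran from -0.141 to -0.033 in WT and from -0.029 to 0.147 in Tet1KO. Pkm was the only one of the 10 whose groups did not overlap, where 6.94% of genes tested did not. At 11 months the groups overlapped, and over both ages the log2 fold change was 0.16 ± 0.15 (adjusted p = 1).

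Pgk1 and Gpi1 had the narrowest ranges of the 10 over the 12 libraries, at 1.70-fold and 1.73-fold from lowest to highest. Gpi1 at 3 months had 92.2, 104 and 95.4 CPM in WT and 117, 101 and 101 in Tet1KO, a log2 fold change of 0.12 with an interval of -0.34 to 0.59. Pgk1 had 43.7, 43.4 and 50.3 CPM in WT and 59.0, 39.4 and 47.4 in Tet1KO, at 0.08 with an interval of -0.35 to 0.52. For both, the groups overlapped. These intervals leave out a doubling or a halving in these samples.

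The entry enzymes were less well bounded. Hk1, the hexokinase found in most tissues, had 10.5, 5.03 and 2.95 CPM in WT and 3.00, 6.47 and 3.75 in Tet1KO, a log2 fold change of -0.48 ± 0.50 with an interval of -1.59 to 0.62. Hk2, the inducible hexokinase, had 22.8, 15.2 and 12.9 CPM in WT and 16.4, 13.6 and 8.85 in Tet1KO, at -0.39 ± 0.42. In both genes WT replicate 1 was the highest library of that age, and without it their values were 0.15 and -0.11. The platelet-type phosphofructokinase gene Pfkp stood at -0.02 ± 0.26 and Pfkl at 0.09 ± 0.57, both with overlapping groups.

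Aldoa and Eno1 also overlapped at 3 months. Aldoa had 49.3, 38.2 and 24.3 CPM in WT and 43.2, 54.0 and 31.6 in Tet1KO (log2 fold change 0.20 ± 0.37). Eno1, which makes phosphoenolpyruvate, had 36.7, 34.0 and 21.2 CPM in WT and 25.7, 47.8 and 24.0 in Tet1KO (0.09 ± 0.42). In each genotype the highest library for both genes was the one that lay apart on the first principal component.

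At 11 months, again none of the 10 was called, against 0.0% of genes tested, and none had an unadjusted p under 0.05, against 326 genes (1.65%). DESeq2 called 3 genes of the table and none of the 10. The estimates were higher in Tet1KO for 4 genes and lower for 6, with a median of -0.02 against 0.02 over all genes tested, of which 53.8% were higher. No gene of the 10 had groups that did not overlap, where 5.36% of all genes tested had. The estimates ran from -0.54 (Pfkl, ± 0.59) to 0.63 (Ldha, ± 1.04).

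The libraries within a group differed more at 11 months than the genotypes did. Gpi1 had 91.8, 158 and 96.0 CPM in WT and 106, 138 and 91.9 in Tet1KO, a log2 fold change of -0.04 ± 0.21. Eno1 had 28.1, 65.0 and 31.8 CPM in WT and 26.8, 56.3 and 25.2 in Tet1KO, at -0.21 ± 0.42. Aldoa had 31.2, 62.4 and 35.5 CPM in WT and 38.9, 61.5 and 26.4 in Tet1KO, at -0.03 ± 0.37. In all 3 genes, replicate 2 of each genotype was its highest library.

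Pkm followed the same libraries, with 38.2, 62.0 and 37.7 CPM in WT and 45.6, 66.6 and 41.4 in Tet1KO (log2 fold change 0.15 ± 0.22). Within same-numbered pairs of libraries of 11 months, Pkm was higher in Tet1KO in 3 of 3, and Eno1 and Pfkl were lower in 3 of 3. Together these are 3 of the 10 genes, where 23.8% of genes tested kept 1 direction in all 3 pairs. With the replicate number as a block, Pkm stood at 0.17 (edgeR unadjusted p = 0.182, adjusted p = 1) at 11 months. Pgk1 did not follow these libraries, with 63.1, 53.8 and 54.8 CPM in WT and 67.1, 40.8 and 46.5 in Tet1KO (-0.15 ± 0.20), its lowest value being in Tet1KO replicate 2. Hk1 had 5.87, 4.38 and 4.28 CPM in WT and 6.71, 10.6 and 3.84 in Tet1KO (0.53 ± 0.50, and 0.13 without Tet1KO replicate 2). Hk2 had 9.97, 15.4 and 16.5 CPM in WT and 5.67, 17.2 and 18.8 in Tet1KO (-0.01 ± 0.42), with replicate 1 lowest in both genotypes. Pfkp was at 0.14 ± 0.26.

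**Figure D3:**
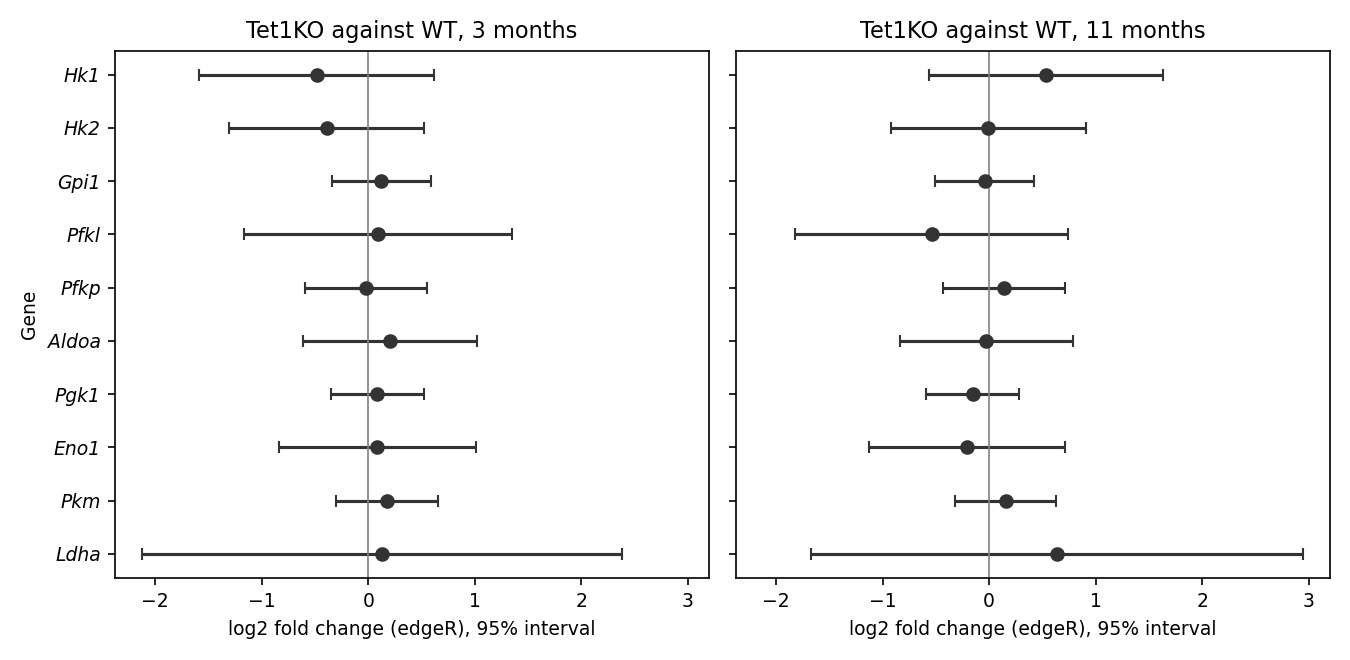
Log2 fold change of Tet1KO against WT for the 10 genes at 3 months (left) and 11 months (right), with 95% intervals from edgeR over 3 libraries per group. Every interval crosses 0, and the widest are those of Ldha, from -2.12 to 2.38 at 3 months and from -1.68 to 2.95 at 11 months.

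The test of whether the genotype difference itself changed with age found no gene of the 10 either, against 0.0% called and 1.57% at an unadjusted p under 0.05. Hk1 had the largest estimate, a log2 difference of 1.02 ± 0.71 (unadjusted p = 0.178, adjusted p = 1). Without WT replicate 1 of 3 months it was 0.39, and Pfkl (-1.12) and Ldha (-1.07) were then larger in size, so the value and its rank rest on that library. Over both ages together no gene of the 10 was called (0.0% of genes tested) or had an unadjusted p under 0.05 (1.43%), and the median was 0.03 against 0.00 for all genes tested.

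Age alone gave no call among the 10. In WT, 0.0% of genes tested were called and 5.67% had an unadjusted p under 0.05, and none of the 10 was among the latter. Pgk1 was the only one whose WT groups did not overlap, where 11.5% of genes tested did not. It had 43.4 to 50.3 CPM at 3 months and 53.8 to 63.1 at 11 months, a log2 fold change of 0.32 ± 0.20 (unadjusted p = 0.134, adjusted p = 0.779). Pgk1 is X-linked, and its level in Tet1KO at 11 months, 51.4 ± 13.8 CPM (SD, n = 3), spanned both WT groups.

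In Tet1KO, 0.0% of genes tested were called for age and 2.33% had an unadjusted p under 0.05, again with none of the 10. Pfkl was the only one whose groups did not overlap, against 6.2% of genes tested. It did not pass the test, with 1.34, 2.05 and 1.73 CPM at 3 months and 0.801, 1.11 and 0.501 at 11 months (log2 fold change -1.09 ± 0.59, unadjusted p = 0.0891, adjusted p = 1). DESeq2 called 7 genes of the table for age in Tet1KO and none of the 10.

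Ldha, whose enzyme favours making lactate from pyruvate, varied most of the 10, over a 17.03-fold range. At 3 months it had 157, 33.1 and 12.2 CPM in WT and 17.98, 181 and 23.3 in Tet1KO. The values at 11 months were 10.6, 16.3 and 15.02 CPM in WT and 12.0, 41.2 and 12.2 in Tet1KO. Only WT replicate 1 and Tet1KO replicate 2 of 3 months stood clear of the other 10, 1 library of each genotype. The genotype estimate at 3 months was 0.13 ± 1.01, and it became -1.72 without that Tet1KO library and 1.71 without that WT library. In WT it was lower at 11 than at 3 months by a log2 fold change of -2.28 ± 1.07 (unadjusted p = 0.0588, adjusted p = 0.774), which was -0.70 without WT replicate 1 of 3 months. In Tet1KO it was lower by -1.77 ± 1.05 (adjusted p = 1). With both of these libraries left out the Tet1KO age estimate was 0.07.

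Ldhc, the sperm lactate dehydrogenase gene that starts 5575 bases after Ldha ends, was high in the same libraries. It had 1545 and 1590 CPM in WT replicate 1 and Tet1KO replicate 2 of 3 months and 47.3 to 292 in the other 10. The exons of the 2 genes do not overlap, and no window of 50 bases of Ldhc occurs in another gene's transcripts. Ldha's share of the step was 4.17% and 4.63% in the 2 high libraries, inside the range of the others. Over the other 10 libraries, the log2 CPM of Ldha and Ldhc had a Pearson's r of 0.618 (permutation p = 0.057, Benjamini-Hochberg adjusted p = 0.285 over 55 pairs) and a Spearman's rho of 0.503 (permutation p = 0.142, adjusted p = 0.471). Without the 2 libraries farthest from the median Ldha, Tet1KO replicate 2 of 11 months and WT replicate 2 of 3 months, r was 0.16, so that relation rests on those samples.

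Some transcripts of late germ cells, picked after their values were seen, were high in these 2 libraries, while the sums of the marker lists did not set both apart. The 12 spermatid markers summed to 2910 and 1450 CPM there, against 2622 and 2406 in replicate 1 of WT and Tet1KO at 11 months. The 11 meiotic markers summed to 3514 and 2820 CPM, inside the 1726 to 4968 of the other 10. Some single transcripts, picked after their values were seen, were high in these 2 libraries. Acrv1, an acrosome gene, had 81.1 and 61.2 CPM there against 1.29 to 21.2 elsewhere. Piwil1, a piRNA pathway gene of spermatocytes, had 20.9 and 12.8 CPM against 1.21 to 5.23. Slc2a3, a glucose carrier, had 80.7 and 86.4 CPM against 3.70 to 16.3. Prm1, a protamine gene of late spermatids, did not follow, since it was also high at 722 and 641 CPM in replicate 1 of WT and Tet1KO at 11 months, where Ldha was 10.6 and 12.0. The part of other cells in the Ldha level was not tested, and in bulk libraries fewer cells of a type and less RNA per cell cannot be told apart.

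**Figure D4:**
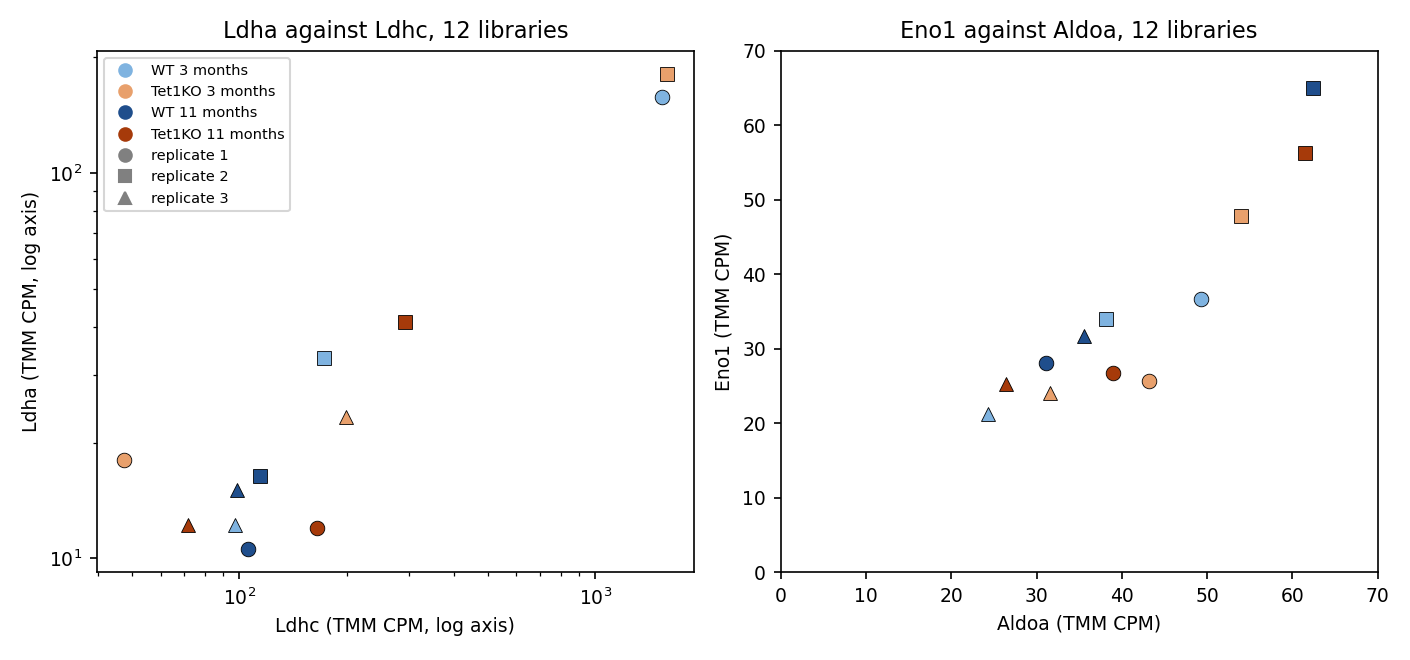
Left, Ldha against Ldhc, both in TMM CPM on log axes, 1 point per library, where WT replicate 1 and Tet1KO replicate 2 of 3 months stand alone at 157 and 181 CPM of Ldha. Right, Eno1 against Aldoa in TMM CPM, where libraries high in one gene are high in the other (r = 0.899 on the log2 scale).

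Over all 12 libraries, Aldoa and Eno1 had the highest correlation of the 45 pairs among the 10 genes. Of these pairs, 34 had a positive correlation of log2 CPM, with a median r of 0.288, and values share library and scaling. The permutations shuffled libraries freely, without regard to group or replicate number. Same-numbered libraries of 11 months deviated together, so the p-values of the correlations may be too small. Aldoa and Eno1 had r = 0.899 (permutation p = 5e-05, adjusted p = 0.00275 over 55 pairs, n = 12) and rho = 0.853 (permutation p = 0.00082, adjusted p = 0.0451). Without the replicate 2 libraries of 11 months, the 2 farthest from the median, r was 0.819. In the 10 libraries whose codes begin with AK it was 0.946, and the other 2, WT replicate 2 and Tet1KO replicate 1 of 3 months, begin with DY and are too few for a value. The lead of this pair depends on the libraries taken. Without the 2 libraries of 3 months that lay apart, Gpi1 and Aldoa led with r = 0.93 (permutation p = 0.00015, adjusted p = 0.00825, n = 10), and Aldoa and Eno1 had r = 0.892 (permutation p = 0.00116, adjusted p = 0.0313) and rho = 0.745 (permutation p = 0.0176, adjusted p = 0.247). Leaving out the replicate 2 libraries of 11 months as well took Aldoa and Eno1 to r = 0.589.

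Gpi1 and Pkm were the other pair past the adjusted threshold, with r = 0.857 (permutation p = 0.00144, adjusted p = 0.0264) and rho = 0.804 (permutation p = 0.00274, adjusted p = 0.0502). Without the same 2 libraries r was 0.554, and among the AK libraries it was 0.877. The 6 pairs among Gpi1, Aldoa, Eno1 and Pkm had r of 0.714 to 0.899. Most of these rest on the replicate 2 libraries of 11 months. Without them r went from 0.714 to -0.05 for Gpi1 and Eno1, from 0.729 to 0.233 for Eno1 and Pkm, from 0.719 to 0.385 for Gpi1 and Aldoa and from 0.726 to 0.417 for Aldoa and Pkm. Pgk1 had negative r with each of the other 9 genes, from -0.733 to -0.02, none of them past the adjusted threshold.

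The marker lists gave a mixed picture of the replicate 2 libraries of 11 months. The 16 markers of undifferentiated spermatogonia summed to 295 CPM in WT and 342 in Tet1KO there, against 156 to 277 in replicates 1 and 3 of 11 months and 167 to 325 at 3 months. The WT sum was close to that of both replicate 3 libraries (277 and 276). The 11 markers of meiotic cells had their lowest sums in these libraries, 2701 CPM in WT and 1726 in Tet1KO, against 3079 to 4545 in the other 4. Leukocyte markers did not move one way, at 87.2 CPM in WT replicate 2 and 1061 in Tet1KO replicate 2. The part of cell makeup in these levels was not tested.

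**Figure D5:**
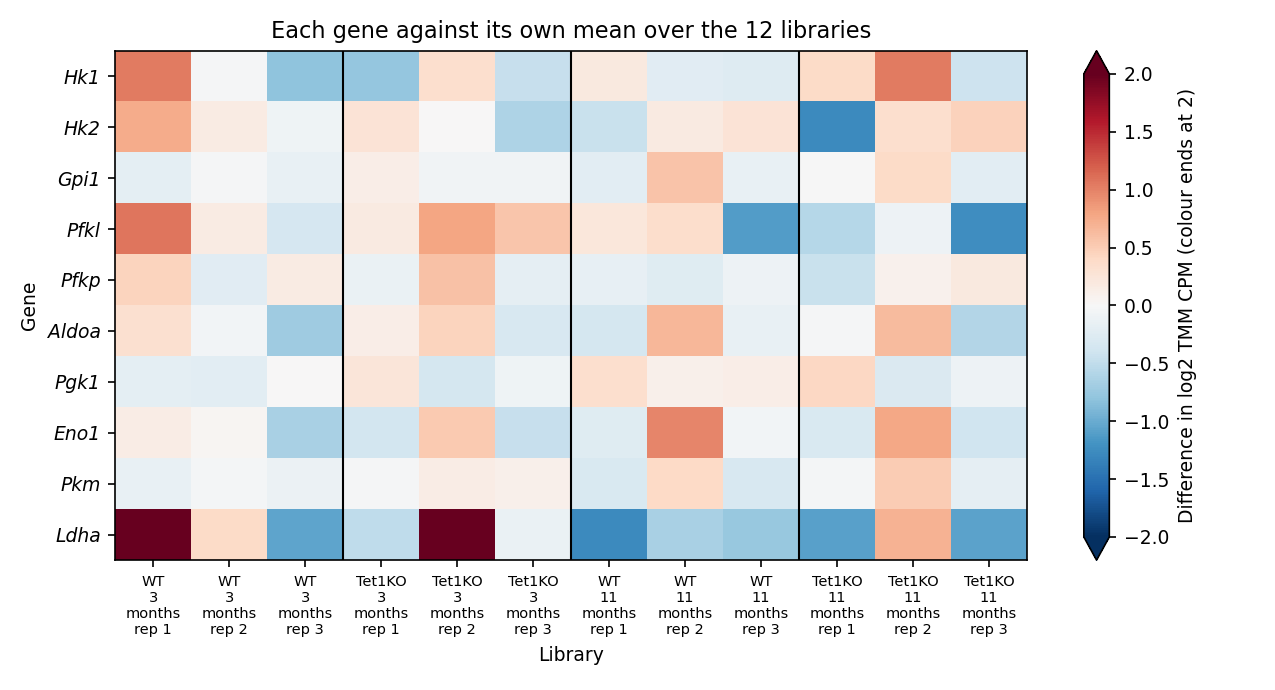
Log2 TMM CPM of each of the 10 genes minus its own mean over 12 libraries, red above and blue below, with the libraries in columns by group. Ldha is dark red in 2 libraries of 3 months, and Gpi1, Aldoa, Eno1 and Pkm are red together in replicate 2 of both genotypes at 11 months.

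Ldhb, the heart-type lactate dehydrogenase gene and no member of the 10, was lower in Tet1KO by estimate at both ages. Among 6 tested isozymes outside the 10, germ cell forms aside, it had the smallest unadjusted p at both ages. At 3 months it had 54.9, 23.2 and 21.2 CPM in WT and 16.02, 19.95 and 10.6 in Tet1KO, without overlap. The groups of 6.94% of genes tested did not overlap at that age. At 11 months it had 23.9, 26.4 and 7.02 against 14.1, 11.6 and 6.02, with overlap, though lower in each same-numbered pair. Of genes tested, 23.8% kept 1 direction in every such pair. The log2 fold change over both ages was -0.98 ± 0.37 (unadjusted p = 0.0235, adjusted p = 1), so it was not called. The 15 Sertoli cell markers summed at 3 months to 109 to 470 CPM in WT and 38.9 to 112 in Tet1KO. At 11 months they summed to 15.8 to 225 in WT and 32.3 to 50.3 in Tet1KO. Within same-numbered libraries of 11 months, their sum was lower in Tet1KO for replicates 1 and 2 and higher for replicate 3. Their part in Ldhb was not tested.

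The rest of the pathway gave no call in either genotype comparison. Of 12 tested genes for the remaining glycolysis steps and their regulators, 6 had higher and 6 lower estimates at each age. Pfkfb3, which makes the activator of phosphofructokinase, had the smallest unadjusted p at both, at a log2 fold change of -0.90 at 3 months (edgeR unadjusted p = 0.0907, adjusted p = 1) and 0.83 at 11 months (0.123, adjusted p = 1). All 7 germ cell forms had higher estimates in Tet1KO at 11 months and 4 of 7 at 3 months, none of them called. Ldhc stood at 0.02 ± 1.20 and 0.73 ± 1.21 and Pgk2 at -0.13 ± 1.03 and 0.30 ± 1.03. The spermatid markers went the same way at 11 months, with 12 of 12 tested higher by estimate. At 3 months they did not, with 2 of 12 higher. The part of spermatids in the germ cell forms was not tested.

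Carriers of glucose and lactate had 6 of 8 tested genes higher at each age. Slc2a4, the insulin-responsive glucose carrier, had the smallest p at 3 months, with 2.80, 2.16 and 3.89 CPM in WT and 1.45, 1.29 and 1.54 in Tet1KO (log2 fold change -1.04, unadjusted p = 0.0272, adjusted p = 1). At 11 months it was Slc16a7, a lactate and pyruvate carrier, at 1.28 ± 1.09 (edgeR unadjusted p = 0.265, adjusted p = 1). Among 13 genes for pyruvate entry into mitochondria, 8 were higher at 3 months and 4 at 11 months. There the smallest p belonged to Pdha1, a pyruvate dehydrogenase subunit, at 0.38 (edgeR unadjusted p = 0.137) and to Pdk3, a kinase that inhibits that complex, at -0.32 (0.049), each with an adjusted p = 1.

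The 16 genes of the tricarboxylic acid cycle had 14 higher estimates at 3 months and 3 at 11 months, with medians of 0.11 and -0.08. Mdh2, a malate dehydrogenase, was at 0.35 at 3 months (edgeR unadjusted p = 0.15, adjusted p = 1) and Idh3a, an isocitrate dehydrogenase subunit, at -0.17 at 11 months (0.268, adjusted p = 1). Of 8 pentose phosphate genes, 6 were higher at 3 months and 4 at 11 months. Taldo1, the transaldolase gene, was at 0.34 at 3 months (edgeR unadjusted p = 0.06, adjusted p = 1). G6pd2, a second glucose-6-phosphate dehydrogenase gene, with 0 CPM in all 3 WT libraries of 11 months and 0.0616 to 1.51 in Tet1KO, had the smallest p at 11 months (edgeR unadjusted p = 0.0335, adjusted p = 1). Of 17 regulators, 6 and 8 were higher, with Mycn, a MYC family factor, at -0.39 at 3 months (edgeR unadjusted p = 0.111, adjusted p = 1) and Egln3, an oxygen-sensing hydroxylase, at -1.10 at 11 months (0.129, adjusted p = 1).

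Some levels depend on how reads were shared between near-identical genes. Of windows of 50 bases in Pgk1 transcripts, 53.9% also occur in another gene, nearly all in the retrocopy Pgk1-rs7, which had 1 to 10 counts per library against 375 to 1089 for Pgk1. Eno1 shares 26.0% of its windows, mostly with Eno1b, which had 2 to 211 counts against 158 to 1114. Pkm shares 25.8%, Gpi1 15.8%, Ldha 9.26%, Aldoa 6.43% and Pfkp 5.1%, while Hk1, Hk2 and Pfkl share at most 1.22%. Counting ignored strand and credited a fragment to every gene it overlaps. Reads of Gpi1 thus cannot be told from its antisense neighbour Gm26762 over 741 exon bases, nor those of Pfkp from Pitrm1 over 748. The largest shared stretch was that of Pkm with Gm49759 on the same strand, 767 bases or 15.3% of Pkm's exons. Gm49759 had 24 to 202 counts per library against 321 to 1062 for Pkm. For their shared windows, Pgk1 and Eno1 levels are also uncertain against those of genes without such copies. The isozyme shares of their steps are uncertain for the same reason, as are those of lactate dehydrogenase and the level of Ldhb.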

How the data were processed

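The authors deposited 1 table of raw counts, whole fragment counts per gene, for 12 libraries of sorted mouse spermatogonia. Per the file headers, featureCounts 1.6.2 was run against GENCODE vM17 with a mapping quality minimum of 30, multi-mapping reads allowed, overlapping genes each credited and no strand option. HISAT2, SAMtools and mm10 stand in the submitters' processing notes, with versions not given in the sources used here. The deposited exon length per gene was used for RPKM.

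Symbols were matched by identifier to GENCODE vM21, which named 53620 of 53715 genes. Counts were filtered with filterByExpr and scaled with TMM in edgeR 4.0.16 (R 4.3.3). CPM and RPKM are on that scale. One model with 1 mean per group was fitted with the robust quasi-likelihood test, two-sided, with Benjamini-Hochberg adjustment over 19815 genes at 0.05. SE were derived from the F statistic. The procedure was tested on simulated data. Shares were compared by exact permutation, and correlations used 100000 permutations of the libraries, regardless of group and replicate number, in scipy 1.17.1. Replicate numbers come from the labels.

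The members and lists were chosen with earlier results of these data known. Named genes are the 10, all isozymes of their steps, Tet1 and, for each other pathway list, up to 3 called genes or else the one with the smallest unadjusted p in each genotype comparison. Acrv1, Piwil1, Prm1 and Slc2a3 were added after their values were seen. The alternatives were DESeq2 1.42.0, its size factors, limma-voom (limma 3.58.1), no filter, only the compared groups, the replicate number as a block, counts not divided by length, only AK libraries and libraries left out.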

Additional observations from a re-analysis of the deposited data

How the results depend on the processing

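No alternative called any of the 10 genes in any of the 6 comparisons. DESeq2 called 2 genes of the table at 3 months, 3 at 11 months, 2 over both ages and 7 for age in Tet1KO, where edgeR called 0 and limma-voom called 0. The median log2 fold change of the 10 moved by less than 0.318, the spread between libraries, in every alternative. With 1 library left out it ran from -0.18 to 0.16 at 3 months and from -0.20 to 0.26 at 11 months, so its sign is not fixed. Deviations of same-numbered WT and Tet1KO libraries correlated at 0.371, 0.167 and 0.332 at 11 months and at -0.589, -0.182 and 0.296 at 3 months. Single pairs were therefore described at 11 months only. The block and its exact test nonetheless used the numbers at both ages, though the values of 3 months do not bear such pairing out. With the replicate number as a block the count of calls stayed at 0 and the medians were 0.10 and -0.03. The block turned Pgk2 at 3 months to 0.16. The germ cell share differences were 2.53 and 3.22 points under the block (exact p = 0.969 and 0.75).

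Of 45 single-gene log2 fold changes, 17 turned sign under some alternative, none past the threshold, and the cause was not tested. With the 2 libraries that lay apart (3 months, WT 1 and Tet1KO 2) both left out, Eno1 (-0.15), Ldha (-0.14) and Ldhc (-0.13) turned at 3 months, as did Ldha for age in Tet1KO (0.074). Under limma-voom Eno1 (-0.21), Ldha (-0.45) and Ldhc (-0.72) turned at 3 months and Gpi1 (0.078) and Aldoa (0.057) at 11 months. Ldhc was -0.000799 with only the compared groups. With only AK libraries Pgk1 was -0.088 and Pgk2 0.034 at 3 months.

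Leaving out 1 library gave these ranges at 3 months, where the ends mostly come from the 2 libraries that lay apart: Hk1 -0.88 to 0.15, Pfkl -0.13 to 0.58, Pfkp -0.31 to 0.15, Aldoa -0.00067 to 0.46, Pgk1 -0.070 to 0.22, Eno1 -0.30 to 0.26, Ldha -1.72 to 1.71, Ldhc -2.29 to 2.18 and Pgk2 -1.61 to 1.34. At 11 months they were Hk2 -0.30 to 0.37, Gpi1 -0.22 to 0.25, Aldoa -0.40 to 0.34, Eno1 -0.68 to 0.27, Pkm -0.081 to 0.43, Ldha -0.21 to 0.93 and Pgk2 -0.074 to 1.17. Without a change of sign, Hk1 ran from 0.13 to 0.82 at that age, Pfkl from -0.87 to -0.30, Pfkp from 0.00986 to 0.31 and Pgk1 from -0.39 to -0.012. Ldha for age in WT ran from -2.72 to -0.70. Ldha for age in Tet1KO ran from -2.61 to 0.072. The germ cell share difference ran from -5.06 to 9.3 points for phosphoglycerate kinase and from 0.769 to 7.26 for lactate dehydrogenase. Depth limits Pfkl most, with 5 counts in 1 library.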
